A study of Homo sapiens with 8 samples.

Results

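SNORD32A, SNORD33, SNORD34 and SNORD35A are C/D box small nucleolar RNAs (snoRNAs) cut from introns of RPL13A, the gene of a large-subunit ribosomal protein. They were taken by name from the count table, in which all 4 have a row among 2962 small RNA features, beside 201 other C/D box snoRNA features. Their levels were compared between HEK293 cells, an established human embryonic kidney line, transfected with a synthetic tRNA-Asp-GTC 3′ tDR (a fragment from the 3′ side of that tRNA) and HEK293 cells that had received a scramble control mimic. In both groups, of 4 libraries each, the mimic was given at 50 nM with Lipofectamine RNAiMax, and cells were collected 48 h later. OTTR-seq, the library method, lets the copying enzyme join both adapters to the cDNA. Nothing in the labels tells whether replicates came from different cultures, and p-values therefore cover only the spread among the libraries, possibly a technical one.

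C/D box snoRNAs carry short C and D boxes that bind fibrillarin, the methyltransferase, and its partner proteins, and a stretch of bases before a D box pairs with ribosomal RNA and directs ribose methylation of it. SNORD33 guides methylation of 18S rRNA, SNORD34 and SNORD35A of 28S rRNA, and SNORD32A of both. In Chinese hamster ovary cells and in mice, snoRNAs of the RPL13A locus are known as mediators of lipid-induced and oxidative stress, and they can accumulate in the cytosol under such stress. The table counts whole features of total RNA, so it separates neither nucleolus from cytosol nor full-length snoRNAs from fragments.

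The sequences of the 4 snoRNAs show how far reads could be shared between them. They are given 5′ to 3′ as in GENCODE release 29 (GRCh38), with the C box letters TGATG and the D box letters CTGA in capitals.
SNORD32A: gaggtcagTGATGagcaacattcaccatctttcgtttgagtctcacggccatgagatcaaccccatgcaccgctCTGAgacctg
SNORD33: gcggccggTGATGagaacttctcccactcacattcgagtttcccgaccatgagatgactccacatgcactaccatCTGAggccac
SNORD34: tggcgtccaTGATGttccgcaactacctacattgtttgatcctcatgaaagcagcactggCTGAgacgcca
SNORD35A: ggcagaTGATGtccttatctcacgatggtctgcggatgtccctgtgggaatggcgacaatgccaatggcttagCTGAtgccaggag

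Searched on the RNA strand, TGATG lay in the first 20 bases and CTGA in the last 20 bases of all 4, as in 222 of 275 GENCODE genes named SNORD (80.7%); these windows do not overlap. The boxes of SNORD34 were 46 bases apart, and those of SNORD32A, SNORD33 and SNORD35A were 61, 62 and 62 bases apart. Close to the ends, SNORD34 had a run of 7 bases complementary to its other end, against 5 in SNORD32A and 4 each in SNORD33 and SNORD35A. SNORD32A and SNORD33 had the letters catgcac in the 25 bases before the D box, 4 bases from it in SNORD32A and 6 bases from it in SNORD33. Of 261 SNORD genes with a D box found in this way, 3 had that run there (1.15%), and the other one was SNORD32B, a paralog of SNORD32A. SNORD32A and SNORD33 were 70.1% identical in a global alignment, with no shared run longer than 9 bases, and the other pairs among the 4 were 53.8 to 56.98% identical. SNORD32A and its paralog SNORD32B were closer, at 89.3% and a run of 24 bases, so reads of SNORD32B could have been counted at SNORD32A; SNORD32B was not analysed here.

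All 4 snoRNAs lie on the plus strand of chromosome 19 (GRCh38) inside RPL13A, which spans 49487554 to 49492308 and has 8 exons in transcript RPL13A-201. SNORD32A occupies 49489965 to 49490048 in intron 2, SNORD33 49490615 to 49490699 in intron 4, SNORD34 49490904 to 49490974 in intron 5 and SNORD35A 49491175 to 49491260 in intron 6. SNORD34 and SNORD33 end 65 and 79 bases before the next exon, and SNORD35A and SNORD32A 164 and 183 bases before it. Each snoRNA thus has its own intron, and none overlaps an exon of that transcript. RPL13A mRNA itself was not analysed here.

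**Figure D1:**
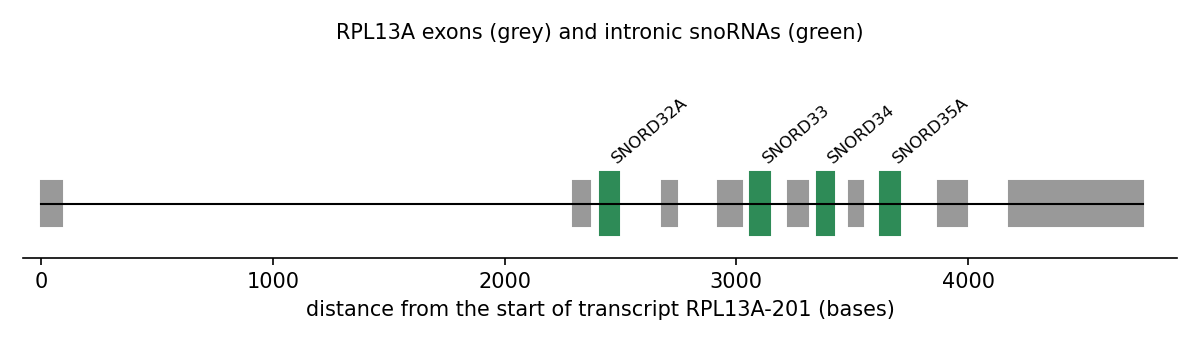
Map of RPL13A drawn to scale, with the distance from the start of transcript RPL13A-201 in bases on the horizontal axis, its 8 exons in grey and the 4 snoRNAs in green. SNORD33, SNORD34 and SNORD35A sit in consecutive introns, 4 to 6, and SNORD32A sits further towards the start in intron 2.

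Counts over all features summed to between 6910186 and 8007025 in tDR libraries and between 4016295 and 10246336 in scramble libraries. The labels leave the row scr2 unexplained; scaled to library size as CPM (per total count), it held 17.6 ± 11.9 CPM in tDR libraries and 4888 ± 994 CPM in scramble libraries (SD, n = 4 each), and ranged over 7.37 to 34.7 CPM in tDR libraries and 3535 to 5679 CPM in scramble libraries. The 4 snoRNAs together made up 0.0224 to 0.0238% of the counts in tDR libraries and 0.0253 to 0.0270% in scramble libraries, so on this scale the groups did not overlap. Per total count, groups did not overlap for 14.3% of the single features tested. That total includes 10 rows of 18S and 28S rRNA, all with positive log2 fold changes of tDR over scramble after TMM scaling. Some repeat the same counts, such as 248813 for both RNA18SN2 and RNA18SN4 in tDR library 1. Their effect on the total was not tested. As a share of C/D box snoRNA counts the 4 snoRNAs made up 1.68 to 1.99% in tDR libraries and 1.93 to 2.19% in scramble libraries, and these ranges overlapped. After scaling by the trimmed mean of M-values (TMM), their summed level was 222 to 265 CPM in tDR libraries and 228 to 265 CPM in scramble libraries. All levels are relative to the other small RNA of a library, in which fewer cells and less RNA per cell cannot be told apart.

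None of the 4 snoRNAs was called different in cells given the tDR mimic. The quasi-likelihood test of edgeR, adjusted by Benjamini-Hochberg over all 1761 features tested, called 0 of 4 at an adjusted p below 0.05, against 6.7% of all features (118). Higher calls made up 5.34% of all features (94) and lower calls 1.36% (24). An unadjusted p below 0.05 was reached by 0 of 4, against 21.5% of all features (379). The count was also 0 of 4 with the DESeq2 Wald test and limma-voom at an adjusted p below 0.05, tests that called 10.8% and 6.81% of all features. Log2 fold changes of tDR over scramble ran from -0.34 (SNORD32A) to 0.070 (SNORD34), with a median of -0.032 against 0.020 over all features tested. The 4 snoRNAs did not point one way: SNORD33 and SNORD34 had positive and SNORD32A and SNORD35A negative values.

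SNORD32A, a guide for both rRNAs, was the least abundant of the 4 and had the largest difference. It stood at 12.4, 12.5, 8.91 and 12.3 CPM (TMM-scaled) in tDR libraries 1 to 4, against 14.4, 14.5, 16.6 and 13.2 CPM in scramble libraries 1 to 4. Every tDR library was below every scramble library, and tDR library 3 was furthest below. Groups that do not overlap were found for 13.3% of all features tested, and for 5.51% with tDR lower. Means were 11.5 ± 1.74 CPM in tDR libraries and 14.7 ± 1.41 CPM in scramble libraries (SD, n = 4 each). The log2 fold change of -0.34 (SE 0.20, 95% interval -0.75 to 0.066) did not pass edgeR's test (adjusted p = 0.326, unadjusted p = 0.0956). With total counts, a mean count of at least 50 or scaling on other C/D box snoRNAs, edgeR's unadjusted p was 0.0389, 0.0407 and 0.0494 (adjusted p = 0.167, 0.172 and 0.223). The 95% intervals lay below 0, the last of them ending at -0.0011. Under these settings 455 of 1761, 278 of 1110 and 390 of 1761 features had an unadjusted p below 0.05. Scaled on microRNAs alone, the log2 fold change of SNORD32A was -0.019 (SE 0.23, edgeR unadjusted p = 0.935, adjusted p = 0.960). That scaling put the median of all features at 0.36. Relative to the median SNORD32A was at -0.38, against -0.36 in the main fit. The difference rested in part on tDR library 3, without which the log2 fold change was -0.23 (edgeR adjusted p = 0.648). In the authors' deposited normalized values the groups overlapped, at 72.8 to 98.3 in tDR libraries and 96.0 to 121 in scramble libraries. SNORD32A also had the fewest reads, with 64 to 91 counts in tDR libraries and 74 to 153 in scramble libraries; the 64 counts of tDR library 3 have an exact 95% Poisson interval of 49.3 to 81.7 counts, for counting error only.

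SNORD33, a guide for 18S rRNA, was the most abundant and was at nearly the same level in both groups. It stood at 102, 123, 127 and 128 CPM in tDR libraries 1 to 4, against 131, 124, 116 and 106 CPM in scramble libraries 1 to 4. The ranges covered each other almost fully, with tDR library 1 the lowest of the 8 and scramble library 1 the highest. Means were 120 ± 12.2 CPM in tDR libraries and 119 ± 10.6 CPM in scramble libraries (SD, n = 4 each), and the log2 fold change was 0.012 (SE 0.14, 95% interval -0.29 to 0.31, edgeR adjusted p = 0.976). Its counts, 748 to 919 in tDR libraries and 515 to 1303 in scramble libraries, came within 10% of those of SNORD14C in every library. The 2 rows had 1303 counts each in scramble library 2 and differed in the other 7 libraries, with 919 and 840 counts in tDR library 4. They were kept as separate features, and whether they share reads was not tested.

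SNORD34, a guide for 28S rRNA and the shortest of the 4 at 71 bases, varied most between tDR libraries. It stood at 47.8, 58.5, 44.3 and 30.3 CPM in tDR libraries 1 to 4, against 45.8, 41.4, 39.5 and 45.03 CPM in scramble libraries 1 to 4. The tDR libraries held both the highest value of the 8, in library 2, and the lowest, in library 4, on either side of all scramble libraries. Means were 45.2 ± 11.6 CPM in tDR libraries and 43.0 ± 2.98 CPM in scramble libraries (SD, n = 4 each), which is a coefficient of variation of 25.7% in tDR libraries and 6.94% in scramble libraries; the difference in spread was not tested. The log2 fold change was 0.070 (SE 0.18, 95% interval -0.30 to 0.44, edgeR adjusted p = 0.875). It was 0.22 without tDR library 4 and -0.071 without tDR library 2 (edgeR adjusted p = 0.559 and 0.856), so the sign depended on single libraries. Without tDR libraries 3 and 4 together, the log2 fold change was 0.30 (edgeR adjusted p = 0.355, unadjusted p = 0.0760). These libraries held the lower SNORD34 values of the tDR group, so the rise follows from the choice of libraries.

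SNORD35A, the other guide for 28S rRNA alone, was the steadiest of the 4. It stood at 60.2, 70.6, 69.7 and 65.1 CPM in tDR libraries 1 to 4, against 74.0, 70.7, 71.4 and 63.9 CPM in scramble libraries 1 to 4. The groups overlapped, with the lowest value in tDR library 1. Means were 66.4 ± 4.78 CPM in tDR libraries and 70.03 ± 4.31 CPM in scramble libraries (SD, n = 4 each), and the log2 fold change was -0.076 (SE 0.14, 95% interval -0.36 to 0.21, edgeR adjusted p = 0.829).

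**Figure D2:**
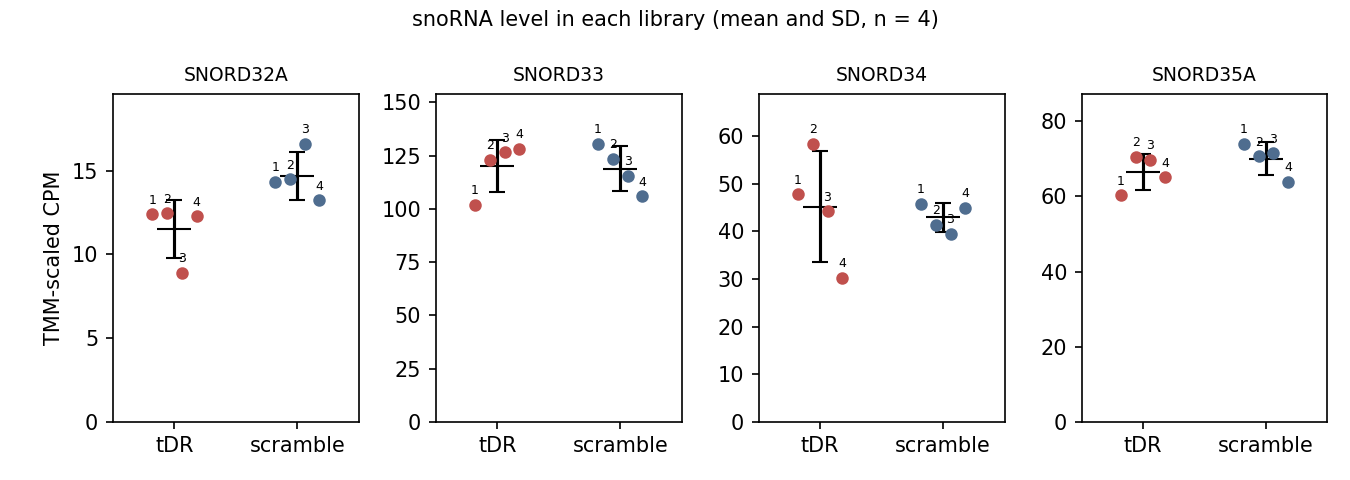
TMM-scaled CPM of each snoRNA (vertical axis, from 0, with its own scale in each panel) in the 4 tDR libraries and the 4 scramble libraries; points are libraries with their replicate number, bars the mean and SD. The SNORD32A groups do not overlap, at 8.91 to 12.5 and 13.2 to 16.6 CPM, and tDR libraries 2 and 4 bracket the scramble libraries for SNORD34.

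The scale on which the libraries were set side by side decided which snoRNAs overlapped. With CPM per total count, SNORD35A was at 59.7 to 65.5 CPM in tDR libraries and 70.8 to 79.2 CPM in scramble libraries, and SNORD32A was at 7.99 to 13.2 CPM in tDR libraries and 13.7 to 18.4 CPM in scramble libraries. On that scale both did not overlap, 2 of 4 against 14.3% of all features tested. As percentages of all C/D box snoRNA counts the same 2 did not overlap, against 15% of features, with SNORD35A at 0.456 to 0.550% in tDR libraries and 0.558 to 0.612% in scramble libraries. In the authors' deposited normalized values 0 of 4 did not overlap, against 14.9% of features. Fitted with total counts, edgeR gave log2 fold changes of -0.48 for SNORD32A, -0.13 for SNORD33, -0.087 for SNORD34 and -0.23 for SNORD35A (adjusted p = 0.167, 0.645, 0.840 and 0.369). That scaling put the median of all features at -0.13, and relative to it the values were -0.36, -0.0085, 0.038 and -0.10.

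Per length, the reads of the 4 snoRNAs of this single host gene spread over about an order of magnitude. Whether reads grow with length, and whether the library method captures each snoRNA equally well, was not tested. The mean level per kilobase of snoRNA (TMM-scaled CPM per kb) of SNORD33 was 1412 ± 144 in tDR libraries and 1400 ± 125 in scramble libraries (SD, n = 4 each). SNORD35A followed with 772 ± 55.5 CPM per kb in tDR libraries and 814 ± 50.2 in scramble libraries. SNORD34 had 637 ± 164 CPM per kb in tDR libraries and 605 ± 42.0 in scramble libraries, and SNORD32A had 137 ± 20.7 in tDR libraries and 175 ± 16.8 in scramble libraries. SNORD35A and SNORD34 were the only neighbours in this order that overlapped, in tDR libraries (700 to 821 and 427 to 823 CPM per kb); in scramble libraries they did not (743 to 861 and 557 to 646). Among 129 tested C/D box snoRNAs with a single length in GENCODE, they ranked 14 (SNORD33), 38 (SNORD35A), 51 (SNORD34) and 102 (SNORD32A), with a median of 452 CPM per kb over all 129. Tested C/D box snoRNAs whose names GENCODE lacks or lists more than once were left out, among them all 10 of the host gene GAS5. One of these, SNORD44, was at 459 CPM in tDR libraries and 451 CPM in scramble libraries, so the ranks hold only within the 129.

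Shares within the 4 are free of library scaling. SNORD35A made up 27.1, 26.7, 27.942 and 27.6% of their summed counts in tDR libraries 1 to 4, against 27.948, 28.3, 29.4 and 28.02% in scramble libraries 1 to 4. These groups did not overlap, though by the narrowest margin, and the difference of -1.08 percentage points gave p = 0.0286 in an exact two-sided permutation test, the smallest that 4 against 4 libraries can give, and 0.114 adjusted over the 4 shares. SNORD32A made up 4.77 ± 0.873% in tDR libraries and 5.96 ± 0.608% in scramble libraries (SD, n = 4 each, exact permutation p = 0.0571, adjusted p = 0.114). SNORD33 made up 49.4 ± 3.98% in tDR libraries and 48.2 ± 1.43% in scramble libraries (exact permutation p = 0.629, adjusted p = 0.657), and SNORD34 18.5 ± 4.26% in tDR libraries and 17.5 ± 1.58% in scramble libraries (exact permutation p = 0.657, adjusted p = 0.657). None of the 4 shares passed the adjusted threshold. The shares add up to a fixed whole, and in tDR library 4 SNORD33 was at its highest, 54.4%, and SNORD34 at its lowest, 12.8%.

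**Figure D3:**
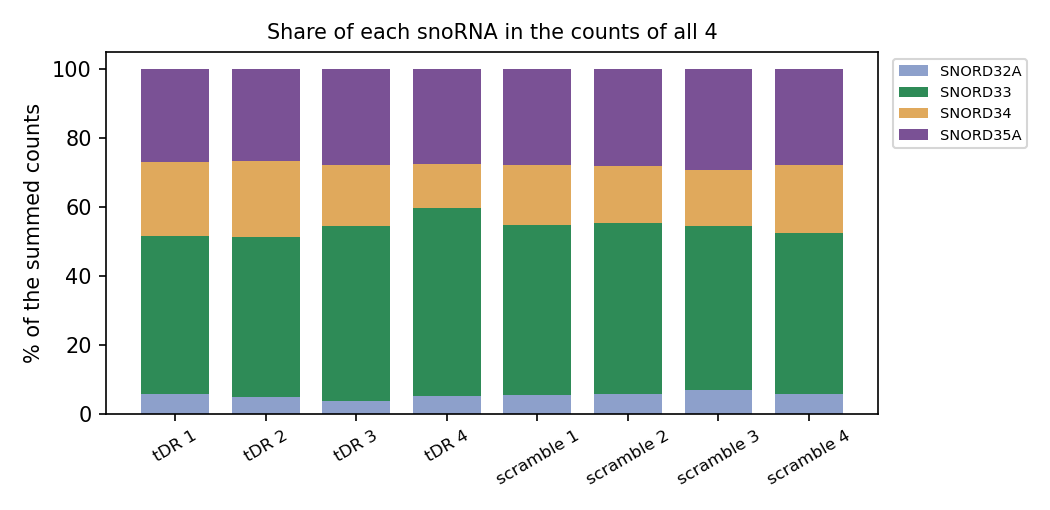
Stacked bars show the share of each snoRNA in the summed counts of all 4 (vertical axis, percent) for the 4 tDR libraries, left, and the 4 scramble libraries, right. SNORD33 holds 45.8 to 54.4% and SNORD35A 26.7 to 29.4% in every library, while SNORD34 drops to 12.8% in tDR library 4.

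Across the 8 libraries SNORD33 and SNORD35A had the most alike profiles of the 4, and SNORD32A and SNORD34 the least alike. Likeness was taken as the root mean square difference between log2 CPM profiles, each centred on its own mean, so that 0 is an identical profile. The profiles share libraries and scaling. Counting error was not removed from the difference, and SNORD32A had the fewest reads. Between SNORD33 and SNORD35A the difference was 0.082, which put SNORD35A at rank 8 of likeness to SNORD33 when set among the 969 other features with a mean of at least 10 CPM. In the other direction SNORD33 was at rank 27 of likeness to SNORD35A. Between SNORD32A and SNORD34 the difference was 0.37, above the median of 0.33 that SNORD32A had over those features. The remaining pairs were below the medians of SNORD32A and SNORD34 (both 0.33). SNORD32A was at 0.29 from SNORD33 and 0.24 from SNORD35A, and SNORD34 at 0.30 from SNORD33 and 0.255 from SNORD35A. Seen from SNORD33, however, SNORD32A and SNORD34 were above its own median of 0.28. Seen from SNORD35A, they were below its median of 0.262. The 2 most like features were RNY3P1 (0.048) and RNY3 (0.050), both Y3 RNA genes or copies, for SNORD33, and the U4 small nuclear RNA RNU4-2 (0.033) and SNORD80 (0.062) for SNORD35A. For SNORD34 they were SCARNA13 (0.080) and the minor spliceosome RNA RNU12 (0.085), and for SNORD32A the repeat copies Y_RNA.707 (0.10) and Y_RNA.193 (0.12).

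Other C/D box snoRNAs were not called either. Of 34 hosted by other ribosomal protein genes, edgeR called 0 higher and 0 lower, against 6.7% of all features tested. GENCODE places all 34 inside the named host. Their median log2 fold change was 0.089, with 26 positive and 8 negative values. Over all features tested 919 values were positive and 842 negative, and over all 184 other C/D box snoRNAs tested 119 and 65. Of the 10 snoRNAs of GAS5, a non-coding host gene, 0 were called (median 0.021), and of the 8 of SNHG1, another such host, 0 were called (median 0.21). GENCODE release 29 has 0 of these 10 names and 6 of these 8, all 6 inside SNHG1, so the hosts of the others were not checked. Over all 184 other C/D box snoRNAs tested, of 201 in the table, 0 were called, 5 had an unadjusted p below 0.05, against 21.5% of all features tested, and DESeq2 and limma-voom called 0. Their log2 fold changes ran from -0.58 to 0.49 with a median of 0.072, and relative to that median SNORD32A was at -0.41, SNORD35A at -0.15, SNORD33 at -0.059 and SNORD34 at -0.0014. In those lists the features with the most counts had log2 fold changes of 0.22 (SNORD58C, in RPL17), 0.025 (SNORD44, in GAS5), 0.22 (SNORD29, in SNHG1) and 0.23 (SNORD3A, the U3 snoRNA of early pre-rRNA cleavage), with edgeR adjusted p of 0.455, 0.942, 0.448 and 0.477. In the lists of other ribosomal protein genes, GAS5 and SNHG1, 2, 0 and 0 features had an unadjusted p below 0.05, against the same 21.5%, and DESeq2 and limma-voom called 0 in each.

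**Figure D4:**
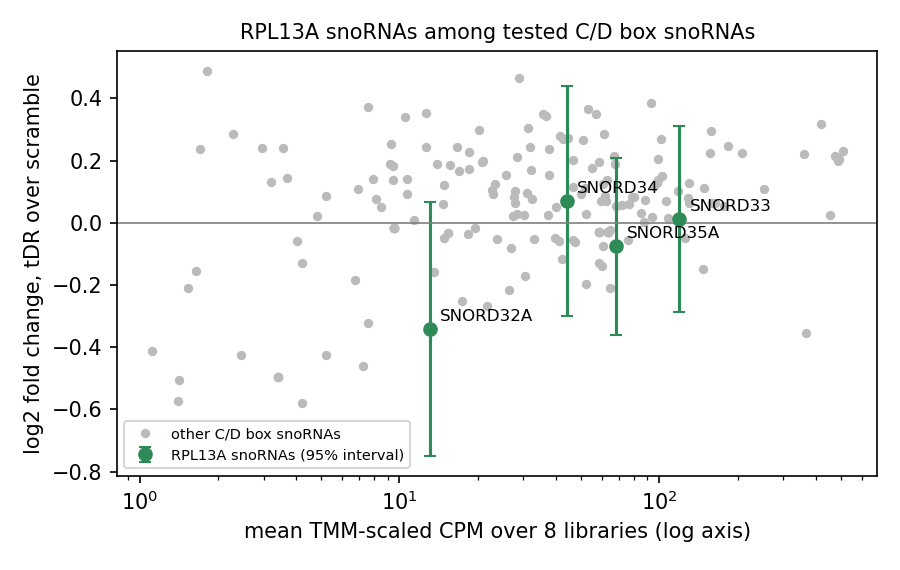
Log2 fold change of tDR over scramble (vertical axis) against mean TMM-scaled CPM (horizontal log axis) for the 4 RPL13A snoRNAs, green with their 95% intervals, and 184 other tested C/D box snoRNAs, grey. The intervals of all 4 cross 0, and SNORD32A at -0.34 lies in the lower part of the cloud.

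The rRNAs that these snoRNAs guide modification on are counted in the same table. The 18S rows RNA18SN2, RNA18SN3 and RNA18SN4 shared a log2 fold change of 0.27 that did not pass edgeR (SE 0.13, adjusted p = 0.226). They cannot be taken as separate measurements. RNA18SN2 and RNA18SN4 had 348690 and 348689 counts in scramble library 2 and equal counts in every other library. RNA18SN2 was at 41338 ± 5865 CPM in tDR libraries and 34170 ± 4080 CPM in scramble libraries (SD, n = 4 each). The 28S row RNA28SN5 rose to 42713 ± 10770 CPM in tDR libraries, against 28150 ± 3972 CPM in scramble libraries by edgeR's test (adjusted p = 0.0233, log2 fold change 0.60, SE 0.16). It no longer passed on leaving out any of scramble libraries 2 to 4 or tDR library 2 (adjusted p = 0.0871, 0.0803, 0.111 and 0.0916), nor with the replicate block (0.113) or under scaling on microRNAs (0.0650) or on other C/D box snoRNAs (0.0543). Methylation of these rRNAs is not measured by counts. The log2 fold changes of the 3 guides for 28S rRNA, SNORD32A, SNORD34 and SNORD35A, are those given above, and none passed.

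**Figure D5:**
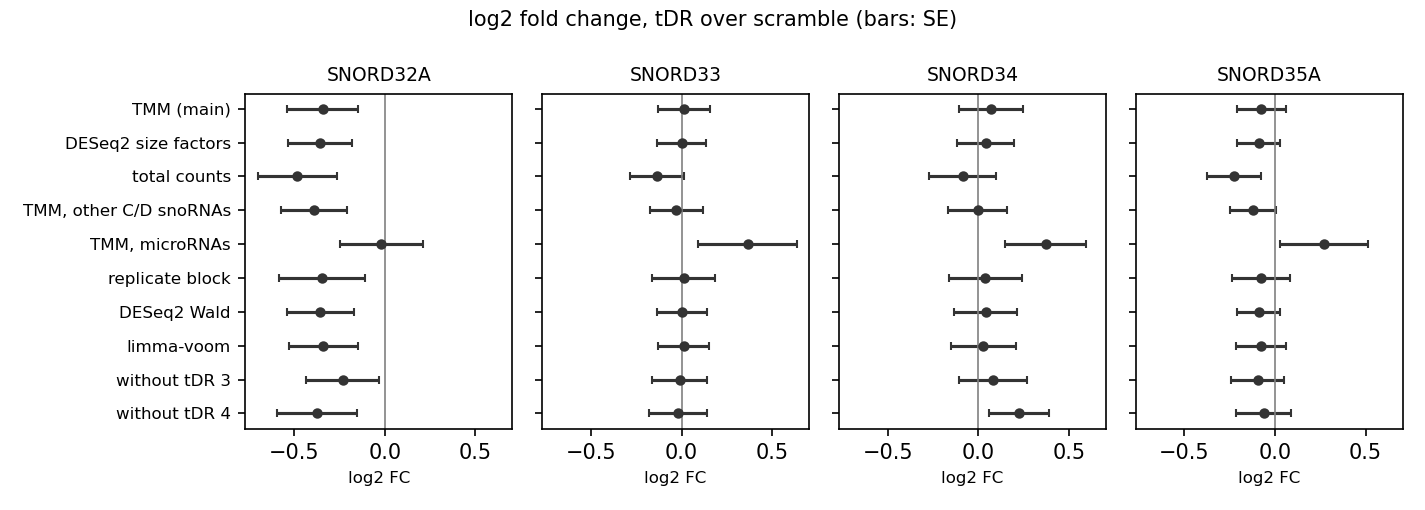
Log2 fold change of tDR over scramble (horizontal axis, bars SE) for each of the 4 snoRNAs under 10 of the settings tried, listed down the vertical axis from the TMM-scaled edgeR fit. SNORD32A is below 0 in all 10, but only at -0.019 (SE 0.23) under scaling on microRNAs alone. That scaling moves all 4 upwards, with the other 3 at about 0.27 to 0.37, and puts the median of all features at 0.36.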

How the data were processed

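The authors deposited whole-number counts per small RNA feature for 8 OTTR-seq libraries of total RNA from TRIzol extraction, per the labels' protocols, and a second file of normalized signal, in which each count is divided by a factor per library. Per the submitters' processing notes the build is hg38; aligner, counter, annotation and the factors' origin are not stated there. Rows scr and scr2 name no gene and were left out before scaling and testing; together they held at most 0.565% of a library.

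Counts were fitted with edgeR 4.0.16 (R 4.3.3): TMM factors and a robust quasi-likelihood F test with no covariate, on all 1761 features passing filterByExpr, the 4 snoRNAs among them. SE was taken as |log2 fold change| over the root of F. On simulated counts the fit called 78 of 98 features changed by a log2 of 1, 98 of 98 changed by 2 and 12 of 1524 unchanged ones. Alternatives used DESeq2 1.42.0, limma 3.58.1, other scalings, filters, the replicate block and left-out libraries. No 2 replicates were copies: over 12 pairs, chi-square divided by its degrees of freedom was at least 15.6. Sequences and coordinates are those of GENCODE release 29 (GRCh38). Python 3.11.15 with scipy 1.17.1 and Biopython 1.88 was used for shares, alignments and permutations. At this depth, 64 to 1303 counts stood behind each value. Named features were the 4 snoRNAs, called and most abundant features of each list, the 2 most alike profiles per snoRNA and the rRNA rows with most counts. The snoRNAs and lists were chosen with earlier results of these data known. A further paralog is not reported here.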

Additional observations from a re-analysis of the deposited data

Results flagged for a closer look

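SNORD32A in tDR libraries had one value far from the others. Library 3 stood at 8.91 CPM, against 12.3 to 12.5 CPM in tDR libraries 1, 2 and 4, and its gap to the nearest of them was 0.949 of the group's range, above Dixon's critical value of 0.829 for 4 libraries. Of the 4 snoRNAs in both groups this was the only such value in CPM, and there was none in the shares; chance alone flags about 1 in 20 groups. The same library was within the range of the other tDR libraries for SNORD33, SNORD34 and SNORD35A. The part of counting error in this value was not tested; the interval of its 64 counts is given above.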

How the results depend on the processing

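Under all 19 alternatives for the fold change, 0 of the 4 snoRNAs were called, with the lowest adjusted p at 0.167 for SNORD32A. SNORD32A was below 0 in all 19, from -0.48 (total counts) to -0.019 (microRNA scaling). Relative to the median of all features under the same setting, these values were -0.36 and -0.38. The small values of the others changed sign. SNORD33 was at -0.13 with total counts, -0.029 scaled on other C/D box snoRNAs, -0.030 with a mean count of at least 50 and -0.080 without tDR libraries 3 and 4, a setting that put SNORD34 at 0.30. SNORD34 was at -0.087, -0.0031 and -0.0087 under the first 3 settings, and SNORD35A was at 0.27 under microRNA scaling, which puts the median of all features at 0.36. With 1 library left out the ranges were -0.40 to -0.23 for SNORD32A, -0.052 to 0.084 for SNORD33, -0.071 to 0.22 for SNORD34 and -0.13 to -0.035 for SNORD35A. The count of all features called was 191 with DESeq2, 185 with limma on the deposited values, 39 with the replicate block and 65 (without scramble library 2) to 164 (without tDR library 1) with 1 library left out, against 118. The cause was not tested.

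The labels do not say that replicate numbers pair the libraries, so the main fit was unpaired. Same-numbered libraries did not deviate together (correlations -0.34 to -0.12, and 0 of 8 libraries matched their own number best). With the replicate block SNORD32A, SNORD33, SNORD34 and SNORD35A were at -0.35, 0.011, 0.040 and -0.077. Shares with 1 library left out differed by -1.47 to -0.797 points for SNORD32A, -0.473 to 2.38 for SNORD33, -0.101 to 2.98 for SNORD34 and -1.29 to -0.758 for SNORD35A; without tDR libraries 3 and 4 SNORD33 was at -1.997 and SNORD34 at 4.33, against 1.20 and 1.08 with all libraries. With 1 library left out the exact test of a share has fewer arrangements and a larger smallest p. The number of snoRNAs whose groups did not overlap, compared on other scales after seeing the data, was 2, 0 and 2 for total counts, deposited values and C/D box percentages, against 1. Depth limits SNORD32A most.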
